A study of Mus musculus with 13 samples.

Results

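The 10 genes followed here mark Sertoli cells: Clu, Sox9, Wt1, Amh, Fshr, Cldn11, Inha, Inhbb, Gdnf and Trf. They were measured in 13 mouse RNA-seq libraries. They are 10 of the 30479 genes in the deposited table and were taken as a fixed list of symbols, all 10 of which were found. The libraries came from mice labelled WT, Het or KO for Wfdc15a, at postnatal day 25, and were made by the Smart-seq2 protocol, which copies polyadenylated RNA into cDNA and does not keep strand. Whole testis without its tunica gave 2 WT, 1 Het and 3 KO libraries from about 2 ng of RNA each. Round spermatids, haploid germ cells sorted by DNA content with a dye, gave 2 WT, 2 Het and 3 KO libraries from 100 to 200 cells each. The labels name no other allele, strain or agent that the groups share. They do not describe the Wfdc15a allele. Nor do they tie libraries to animals: the p-values here measure only the spread between libraries, and that spread may be technical.

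Sertoli cells are the somatic cells of the seminiferous tubule. They enclose the germ cells, seal the tubule with tight junctions, and feed, signal to and clear the cells around them. They answer to follicle-stimulating hormone and testosterone and secrete the hormones AMH and inhibin. In the mouse at this age they have largely stopped dividing, AMH has become low and the first round spermatids are present. A round spermatid sort is meant to leave Sertoli cells out, so in those libraries the 10 genes report on what RNA of this kind was carried along, or on what germ cells themselves express.

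The libraries did not fall by genotype. Over all tested genes other than the 10, the first principal component of each cell type put both WT libraries and KO replicate 1 on one side, and the Het libraries with KO replicates 2 and 3 on the other (71.5% of the variance in testis, 55.5% in round spermatids). These are called the first and the second set here. They were read from the data and are not groups of the study. Every WT library is in the first set and every Het library in the second, so Het against WT and the sets cannot be told apart. The same holds for KO against WT once KO replicate 1 is left out. Each KO against WT difference is therefore given over all libraries, without KO replicate 1, and inside a set. Library totals ran from 7375270 reads (testis KO replicate 1) to 20927428, so 3 reads were worth 0.143 to 0.407 reads-per-million units (RPM), the lowest level read as present. The 10 genes together had 127 to 24743 reads in a testis library and 100 to 2884 in a round spermatid library. Wfdc15a itself lay between 207 and 267 RPM in the 4 WT libraries, 48.4 and 71.5 RPM in the 3 Het libraries and 36.8 and 116 RPM in the 6 KO libraries, with KO replicate 1 highest among the KO libraries of each cell type. The Het and KO ranges overlapped, and since the deleted part is not given, reads on Wfdc15a do not check the KO label fully.

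The sequences before the start sites differ in base composition, which is why a set of them is shown. RefSeq entries (GRCm38.p6, the build of the deposited coordinates) were at hand for 5 of the 10 genes, Fshr, Cldn11, Inhbb, Inha and Gdnf. The other 5, Clu, Sox9, Wt1, Amh and Trf, are named only. The 250 bases before the start are printed for a receptor gene, a junction gene and a hormone subunit gene, each 5′ to 3′ on the strand of its gene. Fshr is at chr17:89200676-89200925 (minus strand), Cldn11 at chr3:31149670-31149919 (plus strand) and Inhbb at chr1:119422249-119422498 (minus strand). Capitals mark the E-box letters CACGTG.
Fshr: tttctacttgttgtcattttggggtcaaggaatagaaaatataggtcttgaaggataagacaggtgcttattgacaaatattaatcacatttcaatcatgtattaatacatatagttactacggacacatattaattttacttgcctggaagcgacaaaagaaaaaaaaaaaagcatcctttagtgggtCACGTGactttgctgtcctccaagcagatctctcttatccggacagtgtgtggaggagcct
Cldn11: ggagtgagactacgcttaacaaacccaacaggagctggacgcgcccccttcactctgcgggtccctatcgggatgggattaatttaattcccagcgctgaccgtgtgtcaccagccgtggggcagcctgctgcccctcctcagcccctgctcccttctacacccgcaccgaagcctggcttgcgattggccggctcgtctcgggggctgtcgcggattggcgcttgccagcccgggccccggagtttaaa
Inhbb: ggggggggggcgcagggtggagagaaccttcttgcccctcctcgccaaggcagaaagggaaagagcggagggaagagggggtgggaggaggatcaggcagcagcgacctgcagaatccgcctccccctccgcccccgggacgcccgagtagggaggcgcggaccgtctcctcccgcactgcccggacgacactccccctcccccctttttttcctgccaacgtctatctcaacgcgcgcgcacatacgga

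The Fshr window is AT-rich, with 36.8% G and C, and carries CACGTG from 61 to 56 bases before the start. The Cldn11 and Inhbb windows have 63.6% and 68.0% G and C. The 8 letter strings searched on both strands were AACAAT for SOX proteins, AGGTCA for NR5A1, AGATAA and TGATAA for GATA factors, TGACGTCA for the cyclic AMP response element, CACGTG and CAGCTG for E-box proteins, and GCGGGGGCG for WT1 and EGR. CACGTG is in 6.02% of 32851 promoter windows of this length. The other 7 are in 9.42%, 14.02%, 9.99%, 7.94%, 1.55%, 13% and 2.57% of them, in the order listed. No string was found in the Cldn11 or Inhbb window, which says only that these letters are not there. In the windows not printed, AGGTCA was found for Inha and in a Gdnf window, and AGATAA in another Gdnf window.

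Whole testis should hold Sertoli cells, and only part of the testis libraries carried the 10 genes clearly. The 10 genes summed to 1430 RPM in the Het library and to 1470 and 1570 RPM in KO replicates 2 and 3. The WT libraries had 26.9 and 32.6 RPM and KO replicate 1 had 17.2 RPM. Clu alone made up 76.8% to 80.3% of the sum in the first 3 of these and 14.2% to 60.7% in the others. Amh, the hormone that regresses the Müllerian ducts, and Inhbb had no read in any of the latter 3 libraries, and KO replicate 1 had reads for 4 of the 10 genes. Clu and Trf are also made by cells outside the testis, so the label was read from all 10 genes together. Not every Sertoli cell gene divided in this way. In the list of other Sertoli cell genes described below, 29 of 31 tested had estimates above 0 for KO against WT. Defb19 of that list had 97.3 and 70.1 RPM in WT against 56.4 RPM in Het, with the KO libraries at 51.1, 63.3 and 75.7 RPM. Cst12 had 45.5 and 30.5 RPM in WT against 84.2 RPM in Het, with the KO libraries at 0.949, 81.8 and 112 RPM.

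**Figure D1:**
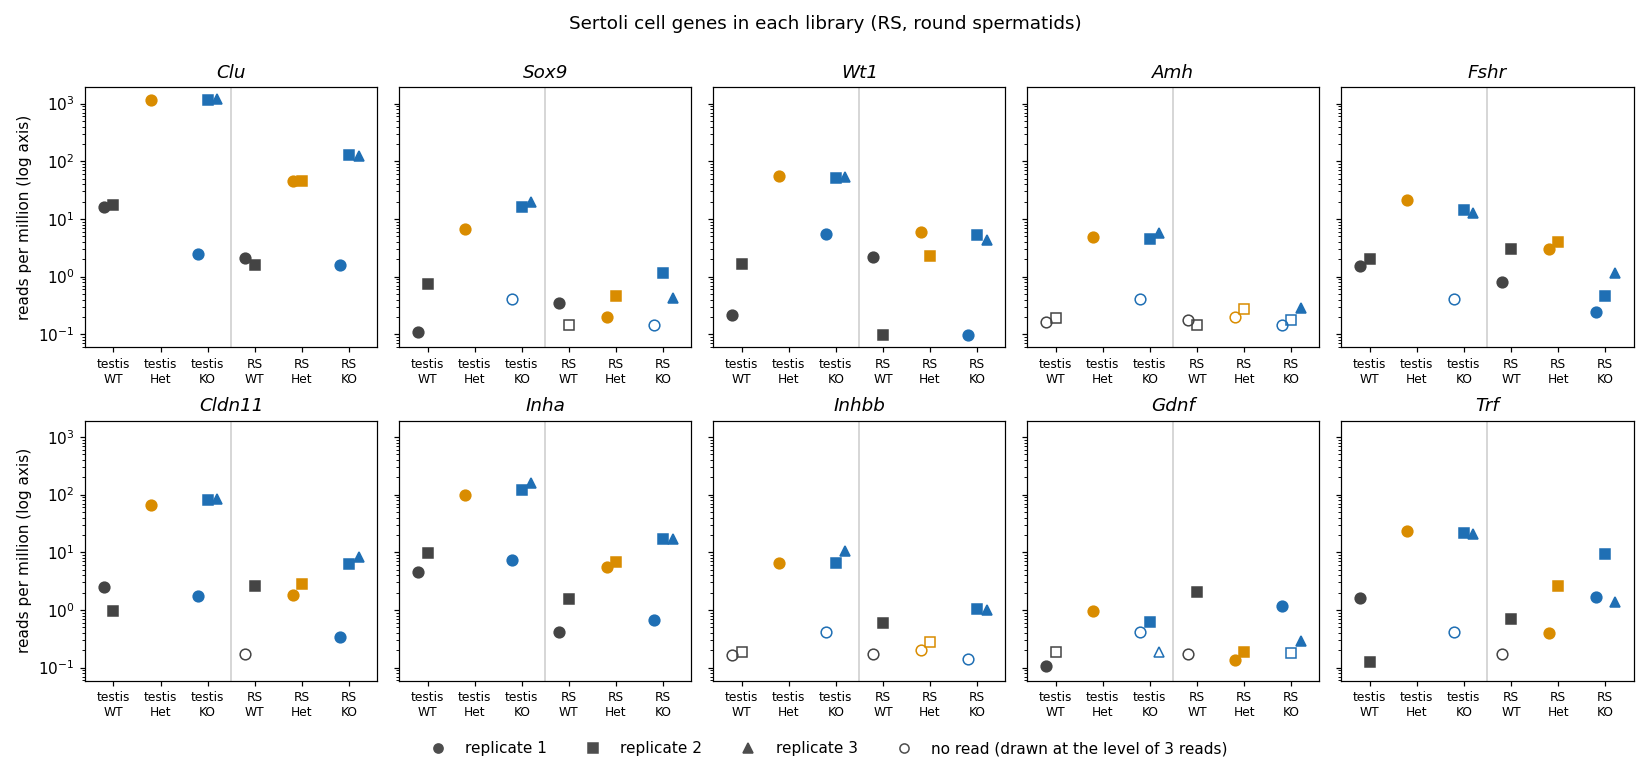
RPM (log axis) of each of the 10 genes in each library, by cell type and genotype; filled symbols are measured values, shapes are replicate numbers, and open symbols mark libraries with no read, drawn at the level of 3 reads. In testis, 9 of the 10 genes were higher in the Het library and KO replicates 2 and 3 than in the other 3 libraries, as were 50.2% of all tested genes. Gdnf, with 0 to 10 reads per testis library, was not.

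Among the secreted proteins, Clu (clusterin, an extracellular chaperone; chr14:65968483-65981547, plus strand) took more reads than any other of the 10 genes in each testis library except KO replicate 1, where Inha and Wt1 took more. Its testis levels were 16.3 and 17.5 RPM in WT against 1150 RPM in Het, with the KO libraries at 2.44, 1160 and 1200 RPM. The Het library and the higher KO libraries lay 68.0 and 69.9 times above the WT mean, and the remaining KO library lay below both WT libraries, so KO and WT overlapped. Trf (transferrin, which carries iron to germ cells; chr9:103204001-103230444, minus strand) had 1.63 and 0.127 RPM in WT against 23.4 RPM in Het, with the KO libraries at 0, 22.0 and 20.4 RPM. Trf shares 2108 exon bases with the read-through gene model Gm20425 on the same strand, which was not analysed here, so reads from the shared bases cannot be assigned to one of them. Gdnf (the growth factor that keeps spermatogonial stem cells; chr15:7810846-7837575, plus strand) had 2 and 0 reads in WT, 10 in Het, and 0, 8 and 0 in KO, at most 0.96 RPM. It was below the filter for testing in testis, and on so few reads it cannot be told whether its level followed the other genes.

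The transcription factors were low in WT testis. Sox9, which starts and keeps Sertoli cell identity (chr11:112782224-112787760, plus strand), had 0.108 and 0.76 RPM in WT against 6.62 RPM in Het, with the KO libraries at 0, 16.1 and 19.8 RPM. Wt1, which maintains the epithelial state of these cells (chr2:105126529-105173616, plus strand), had 0.217 and 1.65 RPM in WT against 55.5 RPM in Het, with the KO libraries at 5.56, 52.3 and 52.4 RPM. Wt1 was the only one of the 10 genes whose 3 KO testis libraries all lay above both WT libraries, as for 28.2% of all tested genes. KO replicate 1 differed in its makeup here, with 41 reads for Wt1, 18 for Clu and none for Sox9.

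The hormone genes and the hormone receptor divided in the same way. Inha, the inhibin alpha subunit that restrains pituitary FSH release (chr1:75507077-75510366, plus strand), had 4.50 and 9.57 RPM in WT against 97.1 RPM in Het, with the KO libraries at 7.46, 119 and 158 RPM. Inhbb, the beta B subunit it pairs with in inhibin B (chr1:119415465-119422248, minus strand), had no read in WT against 6.53 RPM in Het, with the KO libraries at 0, 6.59 and 10.7 RPM. Against the level of 3 reads in each WT library, Inhbb was at least 37.0-fold higher in Het and at least 49.0-fold higher in KO replicates 2 and 3. Amh (chr10:80805243-80807648, plus strand) had no read in WT against 4.89 RPM in Het, with the KO libraries at 0, 4.47 and 5.64 RPM, at least 27.8-fold and 28.7-fold above WT on the same basis. Fshr, the FSH receptor (chr17:88984952-89200675, minus strand), had 1.52 and 2.03 RPM in WT against 21.2 RPM in Het, with the KO libraries at 0, 14.2 and 12.6 RPM. Cldn11, a claudin of the tight junction between Sertoli cells (chr3:31149920-31164324, plus strand), had 2.49 and 0.95 RPM in WT against 65.7 RPM in Het, with the KO libraries at 1.76, 80.7 and 84.0 RPM. In bulk samples, fewer cells of a type and less RNA per cell cannot be told apart.

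Per kilobase of merged exon, the order of the genes could be compared. In the 3 testis libraries of the second set, Clu stood at 334 to 350 RPM per kilobase, Inha at 65.8 to 107 and Cldn11 at 35.2 to 44.9, with no overlap between these neighbours. Wt1 (8.45 to 8.95), Fshr (5.34 to 8.99) and Trf (6.14 to 7.05) overlapped in part. Sox9 (1.60 to 4.79), Amh (2.68 to 3.37) and Inhbb (1.53 to 2.52) came next, with Sox9 overlapping both, and Gdnf was last at 0 to 0.261. In WT testis the order differed at the top: Inha, at 3.05 and 6.49 RPM per kilobase, overlapped with Clu, at 4.75 and 5.09.

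For KO against WT in testis, 9 of the 10 genes were tested and none passed the test, with Benjamini-Hochberg adjustment over 18570 genes at 0.05 (limma on log2(RPM + 1), all 6 libraries in 1 fit). The background was the same: 0% of all tested genes were called, while 4380 had an unadjusted p under 0.05, among them 1 of the 9, Wt1. All 9 estimates were above 0, as were 67.9% of all tested genes. They ran from 1.10 (Fshr) to 3.89 (Wt1), with a median of 2.34 against 0.63 over all genes tested. Sox9, Amh, Inhbb and Trf passed the filter only with second-set libraries, where they were high, so their direction was partly set by the filter. Wt1 had the smallest p, a difference of 3.89 with an SE of 1.11 and an adjusted p of 0.113. For Clu, the difference of 3.24 had an SE of 2.5 (adjusted p = 0.445), since KO replicate 1 and the other 2 KO libraries lay on opposite sides of WT. Without KO replicate 1, all 9 genes rose, against a background of 65.2% of genes called: Clu by 6.05 (SE 0.13), Cldn11 by 5.0 (SE 0.35), Wt1 by 4.89 (SE 0.43) and Fshr, the least, by 2.38 (SE 0.35). The 9 genes are thus called in a comparison in which most genes are.

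Inside the first set, KO replicate 1 was compared with the 2 WT libraries, as a single KO library assumed to vary as they do. This comparison was added after the data had been seen. Of 5 genes tested, Clu fell by 2.38 (SE 0.64, adjusted p = 0.00364) and Wt1 rose by 1.87 (SE 0.72, adjusted p = 0.0353), against 42.1% of genes called. Fshr differed by -1.47 (adjusted p = 0.0715), and Cldn11 and Inha differed by 0.08 and 0.15, less than their SE of 0.70 each. Over all libraries, Clu had a difference above 0 and inside the first set one below 0. Inside the second set, KO replicates 2 and 3 against the Het library gave 0 of 9 calls, against 0.0627% of genes called. Clu differed by 0.04 (SE 0.08), Wt1 by -0.08 (SE 0.20) and Amh by 0.03 (SE 0.43). Sox9 had the smallest p of the 9, a difference of 1.31 (SE 0.33, adjusted p = 0.256), with 69 reads in Het and 205 and 313 in KO.

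The Het library against WT gave 0 of 9 calls over all 6 testis libraries, with 0% of genes called and 3674 at an unadjusted p under 0.05, among them Wt1. All 9 estimates were above 0, as were 72.9% of all tested genes, with a median of 3.69 against 1.02 over all genes. The limit given above for Sox9, Amh, Inhbb and Trf holds here too. Leaving out KO replicate 1, which is in neither group but shares the estimate of spread, turned all 9 into calls (56.8% of genes called), with Clu higher by 6.01 (SE 0.16). KO against Het over all 6 libraries gave 0 of 9 calls, with 0% of genes called and 52 at an unadjusted p under 0.05, none of them among the 10, and a median of -1.09 against -0.37 over all genes.

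**Figure D2:**
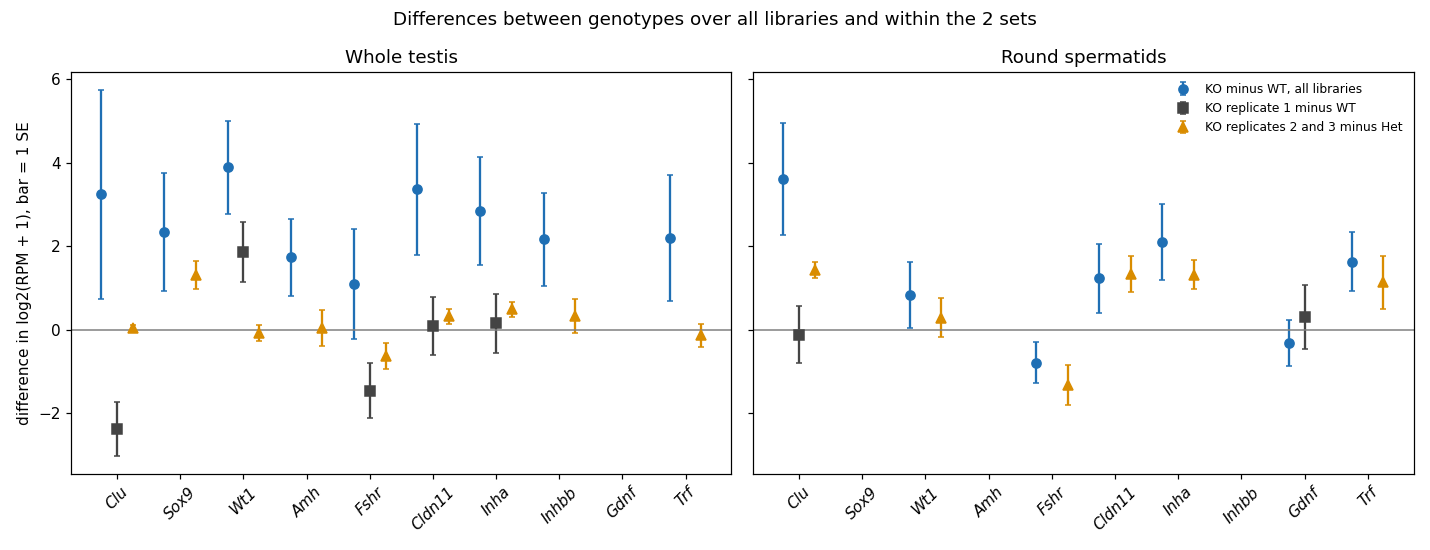
Difference in log2(RPM + 1) for each tested gene, with bars of 1 SE, in testis (left) and round spermatids (right): KO minus WT over all libraries (circles), KO replicate 1 minus WT (squares) and KO replicates 2 and 3 minus Het (triangles). In testis Clu has 3.24, -2.38 and 0.04 in these 3 comparisons; in round spermatids it has 3.61, -0.12 and 1.43.

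Round spermatid libraries held the 10 genes at lower levels and divided along the same lines. The sum was 5.84 and 12.2 RPM in WT against 62.5 and 65.2 RPM in Het, with the KO libraries at 5.78, 169 and 156 RPM. Clu had 2.1 and 1.62 RPM in WT against 45.4 and 46.1 RPM in Het, with the KO libraries at 1.62, 129 and 122 RPM. The KO libraries therefore lay on both sides of Het, and KO replicate 1 was level with WT. Inha had 0.409 and 1.52 RPM in WT against 5.59 and 6.84 RPM in Het, with the KO libraries at 0.669, 16.8 and 17.0 RPM. Cldn11 had 0 and 2.60 RPM in WT against 1.80 and 2.77 RPM in Het, with the KO libraries at 0.334, 6.27 and 8.16 RPM. For Clu, Wt1 and Inha, 3 of the 10 genes, every library of the second set lay above every library of the first, as they did for 25.6% of all tested genes.

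The other 7 genes had at most 158 reads in any spermatid library. Wt1 had 2.16 and 0.0981 RPM in WT against 5.86 and 2.31 RPM in Het, with the KO libraries at 0.0956, 5.33 and 4.26 RPM. Trf had 0 and 0.687 RPM in WT against 0.400 and 2.59 RPM in Het, with the KO libraries at 1.67, 9.26 and 1.35 RPM, the only one of the 10 whose KO libraries all lay above both WT libraries, as for 16.6% of all tested genes. Fshr had 0.818 and 3.04 RPM in WT against 3.06 and 3.97 RPM in Het, with the KO libraries at 0.239, 0.469 and 1.14 RPM, lower in each KO library than in either Het library. Sox9 stayed at or under 1.17 RPM and Inhbb at or under 1.05 RPM. Amh was read in 1 of 7 libraries, KO replicate 3, with 4 reads. Gdnf was highest in first-set libraries, with 42 reads (2.06 RPM) in WT replicate 2 and 24 reads (1.15 RPM) in KO replicate 1.

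For KO against WT in round spermatids, 7 of the 10 genes passed the filter and none was called, against 0% of 18075 genes, with 3813 at an unadjusted p under 0.05. Clu, Trf and Inha were among these, with differences of 3.61 (SE 1.34), 1.63 (SE 0.70) and 2.11 (SE 0.91) and adjusted p of 0.178, 0.222 and 0.223. Fshr and Gdnf had estimates below 0, -0.79 (SE 0.50) and -0.32 (SE 0.55), and the median of the 7 was 1.23 against 0.03 over all genes. Of the 7, only Clu and Gdnf would have passed the filter in the first-set libraries alone. Without KO replicate 1, which leaves KO libraries of the second set against WT libraries of the first, 5 of the 6 genes then tested were called, against 30.8% of genes. Inside the first set, Clu differed by -0.12 (SE 0.68) between KO replicate 1 and WT, and neither it nor Gdnf, the other gene tested, was called (1.26% of genes called). Het against WT gave 0 of 7 calls, against 0% of genes and 4542 at an unadjusted p under 0.05, with Clu at 4.04 (SE 1.46, adjusted p = 0.132). Without KO replicate 1, 2 of the 6 genes then tested were called (26.4% of genes called).

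KO against Het in round spermatids was the one genotype comparison inside the second set in which any of the 10 genes was called. Mean levels in KO replicates 2 and 3 were 2.74 times the Het mean for Clu, 2.72 times for Inha, 3.16 times for Cldn11 and 3.55 times for Trf, but 0.228 times for Fshr and 1.17 times for Wt1. Of the 6 genes tested in these 4 libraries alone, Clu rose, by 1.43 (SE 0.19, adjusted p = 0.00435), against 4 of 17008 genes, or 0.0235%, called in either direction. Cldn11 and Inha had differences of nearly the same size, 1.33 (SE 0.44) and 1.32 (SE 0.35), and missed the threshold (adjusted p = 0.427 and 0.379), as did Fshr at -1.34 (SE 0.48, adjusted p = 0.454). This fit was added after the data had been seen. In the fit of all 7 libraries, none of 7 genes was called (0.0111% of genes called, 925 at an unadjusted p under 0.05). There Clu differed by -0.43 (SE 1.34), since KO replicate 1 enters the KO mean, and Fshr by -1.52 (SE 0.50, adjusted p = 0.889). In the testis libraries of the same genotypes, summed levels of the 10 genes were 1.06 times the Het level, against 2.54 times in spermatids. A test of that contrast was not made.

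Between the sets, markers of several other cell types moved with the 10 genes, and their part in these results was not tested. In testis the 8 Leydig genes summed to 42.6 to 120 RPM in the first set and 585 to 842 RPM in the second. The 10 peritubular and stromal genes summed to 26.6 to 208 RPM and 930 to 1430 RPM, the 8 macrophage and leukocyte genes to 2.44 to 6.72 RPM and 96.3 to 111 RPM, and the 8 spermatocyte genes to 400 to 938 RPM and 2300 to 2570 RPM. Inside the first set the lists did not all move together. There KO replicate 1 had the highest Leydig, stromal and spermatocyte sums, but the lowest macrophage sum and the lowest sum of the 10 genes. Between the sets, the sum of the 8 round spermatid genes went the other way, 1460 to 3990 RPM in the first set and 536 to 672 RPM in the second. Not all 8 genes did: for Het against WT in testis, 4 had estimates above 0 and 4 below 0. Between 0 and 2 of the 8 Leydig genes, 0 and 1 of the 10 stromal genes and 2 and 5 of the 8 macrophage genes had no read in a first-set testis library, and none of these in a second-set one. The 6 endothelial genes summed to 5.31 to 20.5 RPM and 23.7 to 32.2 RPM. The 5 blood genes did not follow the sets and were highest in first-set KO replicate 1, at 486 RPM, against 6.27 and 15.9 RPM in WT and 43.9 to 73.1 RPM in the second set.

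In the sorted spermatids, the Leydig sum was 0.294 to 1.48 RPM in the first set and 23.2 to 76.2 RPM in the second, with 2 to 7 of the 8 genes at 0 reads and 0 to 1. The stromal sum was 3.44 to 5.67 RPM and 487 to 1070 RPM, the spermatocyte sum 487 to 572 RPM and 945 to 1090 RPM, and the round spermatid sum 1550 to 1700 RPM and 1050 to 1420 RPM. The endothelial sum, 4.16 to 13.3 RPM and 2.91 to 13 RPM, and the blood sum, 0 to 3.58 RPM and 0 to 1.82 RPM, overlapped between the sets. Beside the higher Clu of KO replicates 2 and 3, the mean stromal sum was 845 RPM against 513 RPM in Het, and the mean spermatocyte sum 996 RPM against 1020 RPM. The Leydig sums of these KO libraries, 23.2 and 76.2 RPM, lay on both sides of Het, at 58.3 and 61.2 RPM.

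**Figure D3:**
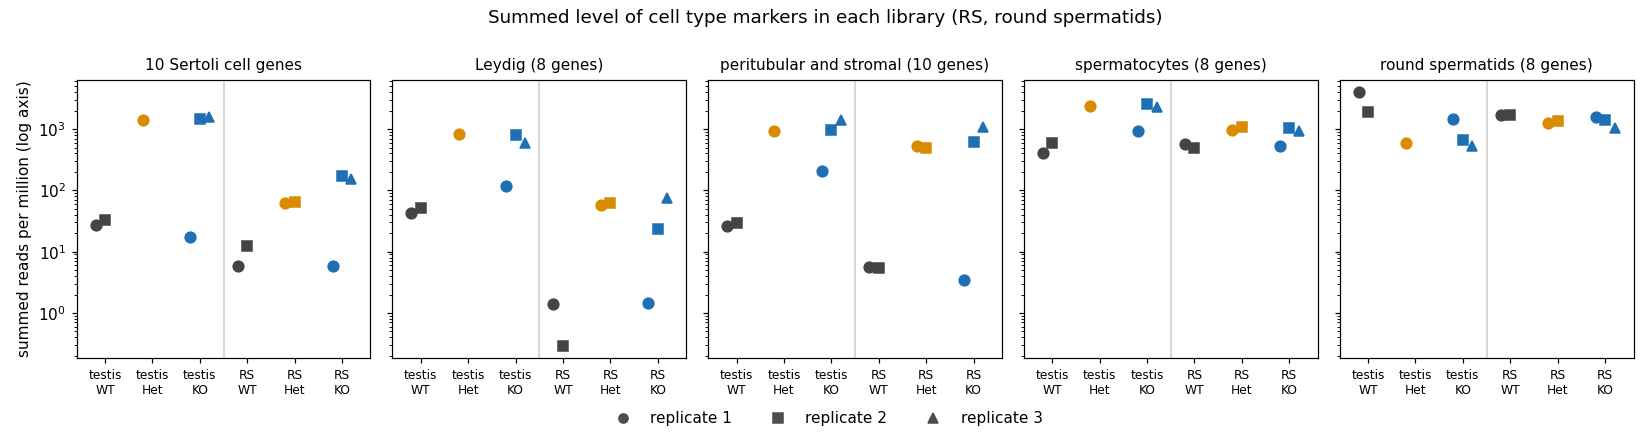
Summed RPM (log axis) of the 10 Sertoli cell genes and of 4 marker lists in each library; shapes are replicate numbers and colours the genotypes on the axis. The 3 somatic panels and the spermatocyte panel are higher in the Het libraries and KO replicates 2 and 3, and in testis the round spermatid panel is lower there.

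Sorted spermatids were then set beside whole testis. In WT, none of the 10 genes was called over all 13 libraries, against 11.5% of 20085 genes, with 4931 at an unadjusted p under 0.05, none of them among the 10. Clu was at -2.65 (SE 2.48) and Inha at -2.02 (SE 1.38), with adjusted p of 0.594 and 0.430. In the first-set libraries alone, the same estimates for Clu and Inha had SEs of 0.45 and 0.56, and both fell (adjusted p = 0.00212 and 0.0215), 2 of 7 tested against 35% of genes called. In KO, 0 of 10 genes were called over all libraries, against 2.36% of genes and 4378 at an unadjusted p under 0.05, among them Wt1, Amh, Sox9 and Inha. The median of the 10 was -2.1 against -0.14 over all genes. KO testis replicate 1 decided this count: without it, 9 of 10 were called lower in spermatids, Gdnf being the exception, against 40.2% of genes. Sox9, Amh and Inhbb passed the filter only with testis libraries, where they were high, so their direction was partly set by the filter.

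In the second-set libraries alone, all 9 tested genes fell from KO testis to KO spermatids, by 3.42 (Sox9) to 2.18 (Trf), against 46.1% of genes called in either direction. The limit just given for Sox9, Amh and Inhbb holds here too. Clu fell by 3.23 (SE 0.12, adjusted p = 5.13e-10), Cldn11 by 3.35 (SE 0.30), Wt1 by 3.21 (SE 0.36) and Inha by 2.95 (SE 0.24). As a share of the testis mean, the summed level left in KO spermatids was 10.7%, and in Het spermatids 4.46%. Clu, which made up most of that sum, had 10.6% and 3.98%. The list of other Sertoli cell genes described below had larger shares, 20.2% and 15.2%. The same share was 7.16% and 7.10% for the Leydig list (from KO libraries that lay far apart), 70.8% and 55.1% for the stromal list, and 40.9% and 42.7% for spermatocytes. The difference between the KO effects in spermatids and in testis gave 0 calls of 10 (2.13% of genes called, 3460 at an unadjusted p under 0.05), with estimates from -3.05 (Wt1) to 0.37 (Clu). Without testis KO replicate 1, 6 of the 10 were called, all below 0, against 31.1% of genes. That limit for Sox9, Amh and Inhbb holds for this contrast too.

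Set against Clu in the same library, Inha and Cldn11 had overlapping ranges in the sort and in the tissue, and Fshr spread more widely in the sort. Per 100 RPM of Clu, Inha stood at 8.45, 10.3 and 13.1 RPM in the second-set testis libraries and at 12.3, 14.8, 13.1 and 13.9 RPM in the spermatid libraries. Inside Het, it was higher in both spermatid libraries than in the testis library. Cldn11 stood at 5.72, 6.96 and 6.98 RPM in testis and at 3.96, 6.01, 4.87 and 6.69 RPM in spermatids. Fshr stood at 1.85, 1.23 and 1.05 RPM in testis, at 6.74 and 8.62 RPM in the Het spermatids and at 0.364 and 0.93 RPM in the KO spermatids. Its spermatid values rest on 46 and 43 reads in Het and on 8 and 16 reads in KO. Trf ranged from 0.88 to 7.20 RPM among the spermatid libraries, on 6 to 158 reads, and Wt1 from 3.49 to 12.9 RPM. These ratios are descriptions and were not tested.

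**Figure D4:**
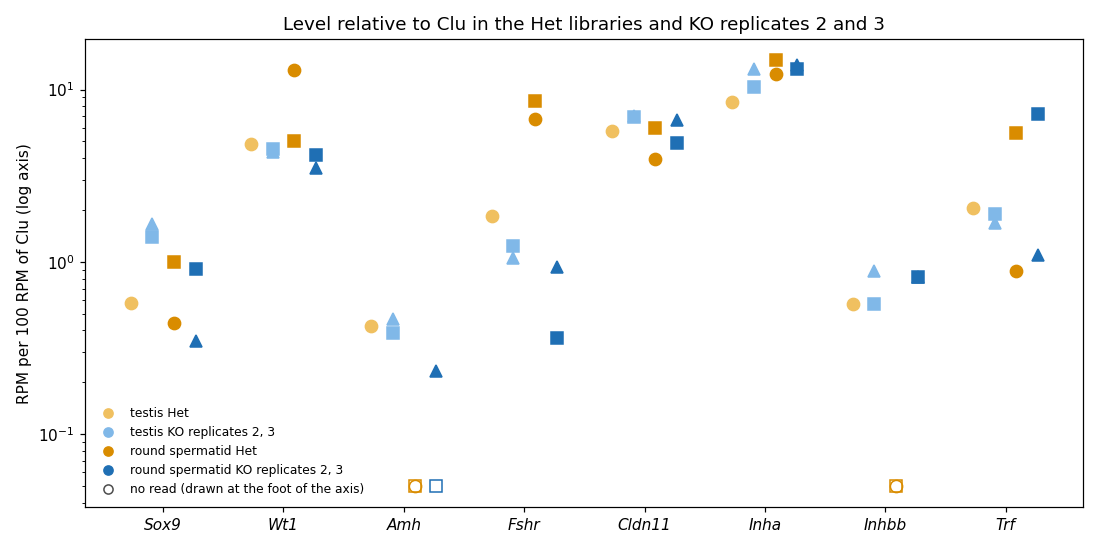
Level of 8 genes per 100 RPM of Clu (log axis) in the Het libraries and KO replicates 2 and 3 of each cell type; open symbols at the foot of the axis mark libraries with no read. Inha and Cldn11 have overlapping ranges in testis and spermatids, and Fshr is higher in the 2 Het spermatid libraries than in the others.

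Other genes of Sertoli cells were described as a separate list, with no test against the 10. Of these 32, 31 were tested for KO against WT in testis, 29 had estimates above 0, Defb19 and Cst12 had estimates below 0 (-0.40 and -0.54), and none was called. The median was 2.00 against 0.63 over all genes, of which 67.9% had estimates above 0. The smallest p belonged to Nr5a1, a nuclear receptor of steroid-making and Sertoli cells (3.62, SE 0.66, adjusted p = 0.071), Vim, the intermediate filament vimentin (3.13, SE 0.82, adjusted p = 0.0988), and Gata1, a transcription factor (3.35, SE 0.98, adjusted p = 0.117). In round spermatids, 27 were tested, 22 had estimates above 0 and none was called, with Rhox8, a homeobox gene, at 2.34 (SE 0.58, adjusted p = 0.127). From KO testis to KO spermatids inside the second set, 27 of 31 fell and none rose, with a median of -2.32 against -0.35 over all genes, where 46.1% of genes were called, 6290 of 18995 downward. From WT testis to WT spermatids, over all 13 libraries, Defb19, a beta-defensin, fell by 3.28 (SE 0.44, adjusted p = 0.00127). Tjp1, which encodes a junction scaffold protein also made outside Sertoli cells, rose by 2.09 (SE 0.51, adjusted p = 0.0224).

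The signalling partners of the 10 genes include receptors on germ cells, and are described here with no test against the 10. For KO against WT in testis, 17 of 19 were tested, 16 had estimates above 0 and none was called. The median was 1.97 against 0.63 over all genes, of which 67.9% had estimates above 0. Gnas, the G protein subunit that couples FSHR to cyclic AMP, had the smallest p (4.08, SE 0.75, adjusted p = 0.071). In round spermatids, 11 of 18 had estimates above 0 and none was called; Amhr2, the AMH receptor, had the smallest p (2.45, SE 0.80, adjusted p = 0.152). From WT testis to WT spermatids, 4 of 18 rose and none fell, against 11.5% of all genes called, 1825 of 20085 upward. These were Tgfbr3, which binds inhibin (2.57, SE 0.48, adjusted p = 0.00605), Prkaca, a catalytic subunit of protein kinase A (2.71, SE 0.56, adjusted p = 0.0105), Acvr2a, an activin receptor (2.92, SE 0.71, adjusted p = 0.0226), and Lrp2, the endocytic receptor megalin (2.21, SE 0.61, adjusted p = 0.0389). In the first-set libraries alone, 7 of 15 rose and 2 fell (35% of genes called). From KO testis to KO spermatids inside the second set, 10 of 18 fell and 2 rose (46.1% of genes called).

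Over the 13 libraries, the genes outside the list whose levels ran closest to each of the 10 were ranked by Pearson r of log2(RPM + 1). The nearest were Tuba1a for Clu (r = 0.994), Ddit4 for Amh (0.997), Tubb5 for Inha (0.991), Dstyk for Wt1 (0.989), E2f2 for Inhbb (0.988), Clec14a for Sox9 (0.987), Ass1 for Cldn11 (0.984), Igf1r for Fshr (0.976) and Fbxo46 for Trf (0.967). For Gdnf the nearest was Ppfia4 at 0.799. These values are descriptions over libraries that share 2 sets and 2 cell types, and a gene that only separates those would score high.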

How the data were processed

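RNA was measured in 13 Smart-seq2 libraries. The deposited table holds log2 reads-per-million (RPM) values for 30479 genes, with gene coordinates on mm10. The submitters' processing notes list HISAT2 2.1.0, Trim Galore 0.6.6 and FastQC 0.11.8. Which counter made the values is not given in the sources used here. The deposited log2 values step in whole reads, and a gene with no read carries a placeholder of 0.9 reads, set to 0 here. Per library, 99.797% to 99.997% of values were either at this placeholder or whole within 0.01. Depth limits precision for counting error only.

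Tests ran on log2(RPM + 1) with limma 3.58.1 in R 4.3.3 (lmFit, eBayes with trend, two-sided), over genes reaching 1 RPM in 2 or more libraries, with Benjamini-Hochberg adjustment at 0.05 over all of them. Testis (6 libraries) and round spermatids (7) were fitted separately, and all 13 together for contrasts between cell types. A lone Het library takes its spread from the other groups. The deposited unit is log2 RPM, so the log scale was chosen for the main fit, and voom on recovered reads was run as an alternative. Fits were run on simulated data with the same spread for every gene and no sets. That does not show how they do where a group is split between the sets, as KO is. All 10 members are named in each comparison; from the other lists, up to 4 genes with the smallest p were named. Members and lists were chosen with earlier results of these data known. Promoter sequences are RefSeq's (GRCm38.p6), gene models GENCODE M21.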

Additional observations from a re-analysis of the deposited data

How the results depend on the processing

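None of the 10 genes was called in any of the 9 comparisons over all libraries. A pseudocount of 0.1 RPM, no filter on low values, voom, centring each library and removing a trend with gene span left all 9 counts at 0. Of 137 recomputed counts, 112 were the same and 25 were higher. With limma's library weights, the counts were 9 for KO against WT and 9 for Het against WT in testis, 5 and 2 in round spermatids, 2 and 9 for spermatids against testis in WT and KO, and 6 for the difference of KO effects. The shares of all genes called in these fits were, in that order, 67.5%, 57.3%, 31.6%, 26.6%, 31%, 51.4% and 34.6%. With the set as a covariate they were 3 and 1 in testis, 2 and 2 for spermatids against testis, and 1 for the difference, with 37.7%, 19.2%, 37.2%, 27.7% and 26.3% of all genes called. In testis, 1 of the 3 KO against WT calls was upward, and the Het against WT call was downward. Only KO has libraries in both sets, so the set term rests on KO replicate 1. Het can be set against WT only through that library. Leaving out 1 library at a time gave 0 to 9 for KO against WT and Het against WT in testis and for spermatids against testis in KO, 0 to 6 for the difference, and 0 to 5 and 0 to 2 in round spermatids. Every rise came from leaving out KO replicate 1, in fits that called 26.4% to 65.2% of all genes. The first set alone gave 2 calls for KO against WT in testis and 2 for spermatids against testis in WT. The second set alone gave 1 for KO against Het in round spermatids and 9 for spermatids against testis in KO.

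Within a cell type, deviations of same-numbered libraries had r from -0.02 to 0.05, and those of differently numbered libraries from -0.05 to 0.05. Where a group has 2 libraries, their deviations mirror each other, so these values cannot decide whether libraries are paired. Whether testis and spermatid libraries of the same number are paired was not tested. With a replicate block, 4 genes were called for Het against WT in testis, 1 for KO against Het in testis and 1 for Het against WT in round spermatids, with 6.07%, 0.07% and 8.79% of all genes called.

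For single genes, 27 of 362 recomputed values changed sign. In KO against WT with the set as a covariate, these were Clu at -2.38, Sox9 at -0.48, Fshr at -1.47 and Trf at -0.78 in testis, and Clu at -0.12, Wt1 at -0.77, Cldn11 at -0.51, Inha at -0.18 and Gdnf at 0.30 in round spermatids. The first set alone gave -2.38 for Clu and -1.47 for Fshr in testis, and -0.12 for Clu and 0.30 for Gdnf in round spermatids. The other changes were in spermatids against testis in WT, where estimates were near 0. Wt1 was at -0.15 with a pseudocount of 0.1, -0.33 with voom, -0.29 with centred libraries, where Inhbb was at -0.01, and -0.41 with the span trend removed. With the block, Sox9 was at 0.76 and Fshr at 0.74. Leaving out 1 WT library at a time gave -0.71 to 0.82 for Wt1, -1.02 to 0.20 for Trf, -0.60 to 0.07 for Sox9, -0.60 to 0.55 for Fshr and -1.38 to 0.46 for Cldn11. The cause was not tested. Genes with a few reads per library, Gdnf, Amh and Inhbb above all, are limited by depth.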
